A study of Mus musculus with 4 samples.

Results

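Glucocorticoids are switched on and off inside cells by a small set of steroid dehydrogenases and reductases. The 9 genes described here were chosen by name: Hsd11b1, which activates glucocorticoids, and H6pd, which supplies its cofactor; Hsd11b2 and Srd5a1, which inactivate them; and Hsd17b4, Hsd17b7, Hsd17b10, Hsd17b11 and Hsd17b12 of the related 17-beta-hydroxysteroid dehydrogenase family. Every non-control probe carrying 1 of these gene names was taken, which gave 14 of the 41174 probes and 9 of the 28146 gene names on the array. Of these, 12 probes of 8 genes, among 24436 probes in all, were kept for testing because the scanner software marked them as well above background in both duplicates of EV-50, of shGR-19 or of both. All 12 carried that mark on every array.

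RNA came from EV-50 and shGR-19, a pair of stable lines of EPH-4, a non-malignant mouse mammary epithelial cell line. EV-50 carries the empty H1-2 vector and has normal glucocorticoid receptor (GR), and shGR-19 carries an shRNA vector directed against GR. Both lines also carry a puromycin resistance marker and were grown in serum-free DMEM/F-12 with 2 µg/ml puromycin, without added glucocorticoid. Each line is 1 clonal isolate, so that a difference between the lines cannot be told apart from a difference between clones. From each line 2 Cy3-labelled samples of 300 ng RNA were each hybridized to a one-colour Agilent whole-genome mouse array, where a probe fluoresces in proportion to the RNA it binds. No source used here gives the duplicates as separate cultures, so the p-values measure only the spread between these arrays, which may be technical.

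Type 1 11-beta-hydroxysteroid dehydrogenase, encoded by Hsd11b1, sits in the endoplasmic reticulum and in intact cells mainly reduces inactive 11-dehydrocorticosterone to active corticosterone, the principal glucocorticoid of mice. It draws NADPH from hexose-6-phosphate dehydrogenase, encoded by H6pd, in the lumen of the same compartment. The type 2 enzyme, encoded by Hsd11b2, runs the reaction the other way with NAD and is best known for shielding the mineralocorticoid receptor in the kidney, and the type 1 steroid 5-alpha-reductase encoded by Srd5a1 reduces the A ring of corticosterone, progesterone and testosterone.

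The results turn on the pair of genes with opposite enzymatic roles, Hsd11b1 and Hsd11b2, so the sequences that measured them are shown. The Hsd11b1 probe is 60 bases long, matches 2 RefSeq transcripts in the accessions given with the array and therefore does not separate them. Its first 30 bases are printed. The 60 bases of the Hsd11b2 probe span 108046785 to 108047002 on chromosome 8 and so cross a splice junction. Among the 7 members with a promoter window in the RefSeq table (build GRCm38.p6, 250 bases before to 50 after the start of the transcript), that of Hsd11b1 is printed because this gene showed the largest difference. It lies at chr1:193242311-193242610 on the minus strand, and its start site is 21.7 kb downstream of the most distal 5′ end of the gene. Capitals mark the CCAAT box, which lies 72 to 68 bases before the start.
Hsd11b1 probe, first 30 bases: aaggacatgtttgtaagtaactaggaactc
Hsd11b2 probe: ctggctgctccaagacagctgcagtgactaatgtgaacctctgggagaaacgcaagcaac
Hsd11b1 promoter: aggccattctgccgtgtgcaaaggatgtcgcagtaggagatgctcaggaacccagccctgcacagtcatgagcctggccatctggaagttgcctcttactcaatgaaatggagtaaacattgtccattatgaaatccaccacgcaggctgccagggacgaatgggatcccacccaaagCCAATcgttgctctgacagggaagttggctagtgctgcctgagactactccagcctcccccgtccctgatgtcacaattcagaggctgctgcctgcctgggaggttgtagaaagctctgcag

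Short motifs were searched on both strands of the 7 windows: TGTTCT, the better conserved part of a GR binding site, CCGGAA, the core bound by ETS factors such as GABP, the CCAAT box and the TATA box TATAAA. They occurred in 19%, 14.9%, 37.4% and 13.6%, respectively, of all 32851 promoter windows in the table. The Hsd11b1 window held 1 CCAAT and none of the other 3 motifs. TGTTCT occurred in the windows of H6pd and Hsd17b7, CCGGAA in that of H6pd, and TATAAA in none of the 7. All 7 windows held at least 1 CCAAT, and Hsd17b7 held 3. The Hsd11b1 and H6pd windows had 6 and 3 CpG dinucleotides, against 15 to 27 in the other 5. The start sites of Hsd11b1 and H6pd were also 21.7 and 5.8 kb downstream of the most distal 5′ end of their gene, against 0.0 kb in the other 5. The CpG counts thus cannot be told apart from the choice of start site. A match is a description of the letters and not of a site in use, and an absent match says only that these letters are not in this window.

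The authors deposited 2 sources under the same sample labels, and both are given for each member. The first is the scanner output, the intensity of every spot after background subtraction, taken here on the log2 scale after dividing by the 75th percentile of its array. The second is a table of log2 values in which each probe is centred on its median over the 4 arrays, so that a value says how far an array stands from that median. Differences are shGR-19 minus EV-50, fitted with limma over all kept probes with Benjamini-Hochberg adjustment. A call required that the lines differ by over 2-fold with an adjusted p under 0.01, and single probes are also described at an adjusted p below 0.01 without the fold limit.

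The sources did not show the same contrast, and whether the scanner files labelled replicate 1 belong to the samples they are filed under was not tested. Scanner values are therefore given by label, and their differences by replicate number hold only if the labels do. Over 21172 probes detected on every array, the log2 difference between the lines had an SD of 0.225 in the scanner arrays labelled replicate 1 and of 0.513 in those labelled replicate 2. Scanner duplicates of the same line stood further apart (SD 0.616 in EV-50, 0.705 in shGR-19), whereas duplicates in the value table had SDs of 0.205 and 0.210. In the scanner files limma passed 0% of kept probes at an adjusted p below 0.01, with 209 at an unadjusted p below 0.05, and the smallest adjusted p was 0.928. In the value table the 2-fold call took 2.39% of kept probes as lower and 1.87% as higher, and the adjusted p alone took 6.04% and 5.52%. The brightest probe of the targeted gene Nr3c1, encoding GR, had log2 scanner values of 1.81 and 1.92 on EV-50 replicates 1 and 2. On shGR-19 replicates 1 and 2 they were 1.46 and -0.03. This probe was lower in shGR-19 by 3.83-fold in the value table (-1.94, SE 0.048, adjusted p = 0.00215). The other Nr3c1 probes were lower there by 3.29-, 3.10- and 2.67-fold, each with an adjusted p below 0.01. The calls given from the value table were made only with all 4 columns. With any 1 left out, a line has a single column, so the loss of calls cannot show whether a call depends on a particular column.

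Of 10 epithelial marker genes on the array, 9 were well above background on all 4 arrays, among them Krt8, Krt18, Epcam and Cdh1, and the signal of the list, summed after dividing by the 75th percentile of the array, lay between 810 and 1027. Krt14, 1 of these 9, was called lower in the value table. The summed signal of 7 fibroblast markers was 1.79 and 3.11 in EV-50 and 1.63 and 34.4 in shGR-19, with Dpt above background on no array. Of the 7, 2 had a kept probe, Col1a2 and Pdgfra, and both were called higher. Col1a2 signals were 846 and 1718.5 in EV-50 and 802 and 17586 in shGR-19, so the sum of 34.4 came mostly from this gene on 1 array. Pdgfra was dim, with signals of 10.7 and 36.7 in EV-50 and 16.2 and 81.3 in shGR-19, and was not well above background on EV-50 replicate 1. The 7 adipocyte markers summed to between 0.257 and 0.389, with Adipoq, Cfd and Lep above background on no array. The 7 immune markers summed to between 0.643 and 0.756, with Ptprc, Itgam and Emr1 on no array, and the 4 endothelial markers to between 0.0729 and 0.0941, with Pecam1 and Cdh5 on no array. The part of the fibroblast markers in the results below was not tested.

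Hsd11b1 was lower in shGR-19 than in EV-50, by more than any other of the tested enzymes. Its probe lies at 195048169 to 195048228 on the minus strand of chromosome 1 (mm9, the build given in the array files). In the value table it stood at 1.60 and 1.58 in EV-50 and at -1.58 and -1.60 in shGR-19. The lines were separated by many times the distance between duplicates. The difference of -3.18 (SE 0.047, limma adjusted p = 0.00120) is 9.06-fold, and 0.336% of the kept probes differed by as much or more in either direction. With any 1 of the 4 columns left out, the difference stayed between -3.19 and -3.17 while the adjusted p rose to between 0.0263 and 0.0368, no longer below 0.01. In RNA from whole cultures, fewer cells that express a gene and less of its RNA per cell cannot be told apart.

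The scanner arrays showed the same order of the lines for Hsd11b1 but an unequal contrast. The log2 levels were 0.53 and 1.53 on EV-50 replicates 1 and 2, and 0.34 and -1.43 on shGR-19 replicates 1 and 2. The lowest EV-50 array lay just above the highest shGR-19 array, so the groups did not overlap, yet both arrays labelled replicate 1 sat close together between the other 2. As signals this was 761 and 1693 against 655 and 215. The replicate 1 arrays thus differed by -0.18, or 1.14-fold, and the replicate 2 arrays by -2.96, or 7.80-fold. The fit over all 4 arrays gave -1.57 (SE 0.72, unadjusted p = 0.0883, adjusted p = 1.00), which did not pass. Groups that did not overlap were found for 17.9% of all kept probes in the scanner files.

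**Figure D1:**
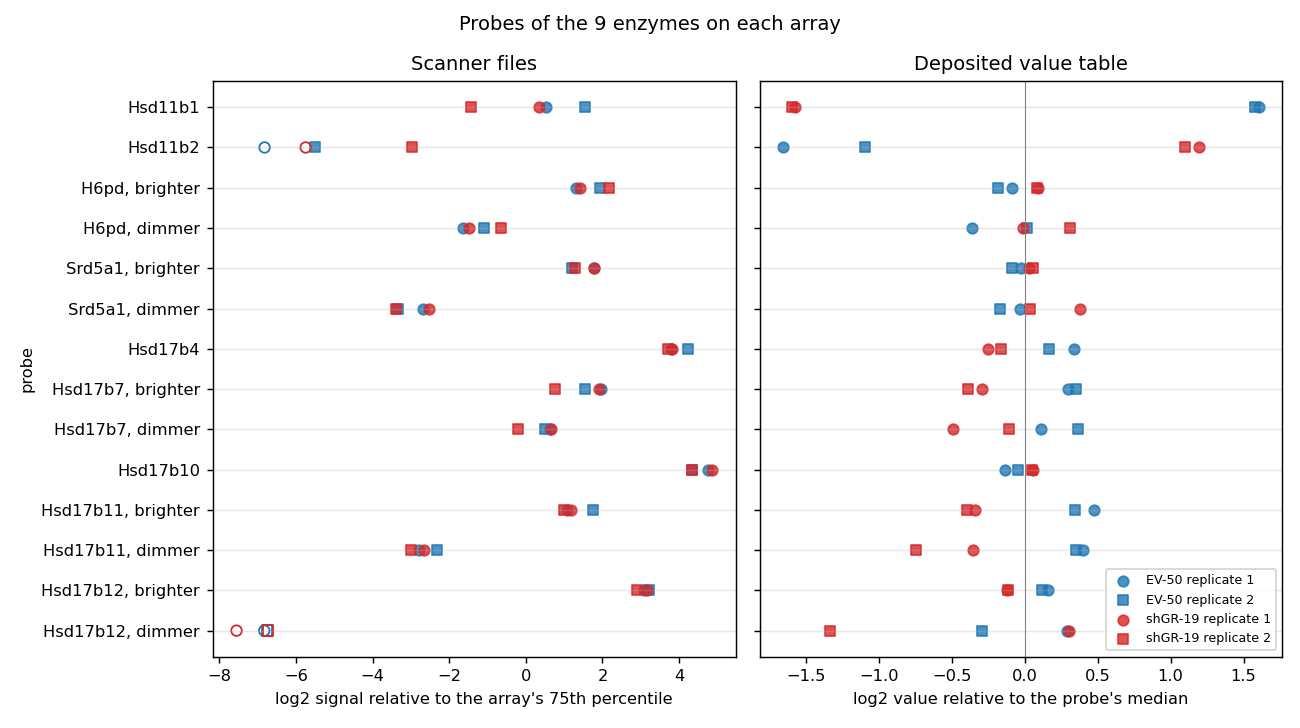
Values of all 14 probes on each array, as log2 signal over the array's own 75th percentile in the scanner files (left) and as log2 value relative to the median of the probe in the value table (right); open symbols on the left are spots not well above background. Hsd11b1 is the probe whose lines stand far apart in the table (1.60 and 1.58 against -1.58 and -1.60), and on the left its arrays labelled replicate 1 lie together at 0.53 and 0.34.

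H6pd, the NADPH source of the Hsd11b1 reaction, did not pass the test. The brighter of its 2 probes, at 149353714 to 149353773 on the minus strand of chromosome 4, had table values of -0.09 and -0.18 in EV-50 and of 0.09 and 0.09 in shGR-19. The shGR-19 columns were both slightly higher, and the difference was 0.22 (SE 0.058, adjusted p = 0.0609), a 1.17-fold difference that 53.8% of kept probes matched or exceeded. The dimmer probe, at 149354490 to 149354549, gave -0.36 and 0.02 in EV-50 and -0.02 and 0.31 in shGR-19. Here the lines overlapped, and the difference was 0.32 (SE 0.19, adjusted p = 0.275). Scanner levels of the brighter probe were 1.30 and 1.93 in EV-50 and 1.42 and 2.18 in shGR-19, which also overlapped. The same held for the dimmer probe, at -1.64 and -1.10 against -1.48 and -0.66.

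Hsd11b2, the inactivating counterpart of Hsd11b1, was detected on only 1 array of each line. Its probe, on the plus strand, was well above background on 1 of 2 EV-50 arrays and on 1 of 2 shGR-19 arrays, in both cases the array labelled replicate 2, and was therefore not kept. Background-subtracted signals were 4.68 and 12.9 in EV-50 and 9.62 and 73.9 in shGR-19. The shGR-19 array labelled replicate 2 was the brightest, and the lines overlapped. In the value table the probe stood at -1.66 and -1.10 in EV-50 and at 1.19 and 1.1 in shGR-19, which did not overlap. When all 41174 probes were fitted the adjusted p was 0.0259, short of the threshold, and no fold is given because 1 array of each line was not well above background. In that fit 0.068% of probes passed an adjusted p below 0.01 as lower in shGR-19, Hsd11b1 among them (adjusted p = 0.00890), and 0.0364% as higher.

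Srd5a1 did not pass the test with either of its 2 probes. The brighter probe, at 69712376 to 69712435 on the minus strand of chromosome 13, had table values of -0.03 and -0.09 in EV-50 and 0.03 and 0.05 in shGR-19. All 4 columns lay within a narrow band, and the difference of 0.10 (SE 0.051, adjusted p = 0.231) did not pass. Its scanner levels were 1.77 and 1.21 in EV-50 and 1.77 and 1.28 in shGR-19, so that the arrays with the same replicate number lay together whatever the line. The dimmer probe, designed to a separate cDNA and lying at 69749409 to 69749468, gave table values of -0.03 and -0.17 in EV-50 and 0.38 and 0.03 in shGR-19. The columns did not overlap, and the difference was 0.30 (SE 0.15, adjusted p = 0.194). On the scanner arrays it stood at -2.68 and -3.35 against -2.54 and -3.38, again together by replicate number.

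In the 17-beta-hydroxysteroid dehydrogenase family, Hsd17b7 and Hsd17b11 were lower in shGR-19 by less than 2-fold. Hsd17b7 encodes an enzyme that reduces estrone and also serves as the 3-ketoreductase of cholesterol synthesis. Its brighter probe, at 171882591 to 171882650 on the minus strand of chromosome 1, had table values of 0.30 and 0.35 in EV-50 and of -0.30 and -0.39 in shGR-19. The columns of each line lay close together, and the difference of -0.67 (SE 0.061, adjusted p = 0.00828) is 1.59-fold, reached by 13.8% of kept probes. The dimmer probe, at 171880203 to 171880262, had values of 0.11 and 0.36 in EV-50 and -0.50 and -0.11 in shGR-19. It was also lower in both shGR-19 columns but did not pass (-0.54, SE 0.18, adjusted p = 0.0968). Scanner levels of the brighter probe were 1.97 and 1.53 in EV-50 and 1.92 and 0.76 in shGR-19, and those of the dimmer probe were 0.64 and 0.49 against 0.65 and -0.20. For both probes the lines overlapped there, with shGR-19 replicate 2 the lowest array.

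Hsd17b11, a lipid droplet-associated enzyme that oxidizes androstanediol, was likewise measured by 2 probes. The brighter, at 104419127 to 104419186 on the minus strand of chromosome 5, had table values of 0.48 and 0.34 in EV-50 and of -0.34 and -0.40 in shGR-19. The lines did not overlap, and the difference was -0.78 (SE 0.070, adjusted p = 0.00804), or 1.72-fold, reached by 10.3% of kept probes. The dimmer probe, at 104421840 to 104421899, gave 0.40 and 0.35 against -0.35 and -0.75. It had the same direction, a 1.90-fold difference (-0.93, SE 0.16) and an adjusted p of 0.0240, which did not pass. Scanner levels of the brighter probe were 1.08 and 1.75 in EV-50 and 1.18 and 0.98 in shGR-19, and those of the dimmer probe were -2.79 and -2.33 against -2.65 and -3.01. The lines overlapped for both. With any 1 column of the value table left out, the adjusted p of the brighter probe rose to between 0.0418 and 0.0570, and that of the brighter Hsd17b7 probe to between 0.0496 and 0.0547.

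The other 3 family members did not pass the test, and most of their reactions lie outside glucocorticoid metabolism. Hsd17b4 encodes the peroxisomal multifunctional enzyme of beta-oxidation. Its table values were 0.33 and 0.16 in EV-50 and -0.25 and -0.16 in shGR-19, without overlap, and the difference was -0.46 (SE 0.085, adjusted p = 0.0291). Scanner levels were 3.80 and 4.22 against 3.81 and 3.72, which overlapped. Hsd17b12 encodes a 3-ketoacyl-CoA reductase of fatty acid elongation. Its brighter probe, at 93873719 to 93873778 on chromosome 2, had table values of 0.16 and 0.12 in EV-50 and -0.12 and -0.12 in shGR-19, and the difference of -0.26 (SE 0.048, adjusted p = 0.0294) amounts to 1.20-fold. The dimmer Hsd17b12 probe, designed to a separate cDNA, was well above background on no array, at -6.83 and -6.75 in EV-50 and -7.55 and -6.73 in shGR-19 on the scanner scale, and is given no fold. Hsd17b10 encodes a mitochondrial enzyme of isoleucine breakdown that is also a subunit of mitochondrial RNase P. Its probe lies at 148438855 to 148438914 on the plus strand of chromosome X. Table values of Hsd17b10 were -0.14 and -0.05 in EV-50 and 0.05 and 0.05 in shGR-19. The difference was 0.14 (SE 0.058, limma adjusted p = 0.143). Scanner levels of Hsd17b12 were 3.09 and 3.22 against 3.16 and 2.91, and those of Hsd17b10 were 4.74 and 4.33 against 4.85 and 4.35, so that the lines overlapped for both.

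Counted together in the value table, 7 of the 12 kept probes were lower in shGR-19 and 5 higher. At an adjusted p below 0.01, 3 of 12 were lower, those of Hsd11b1, Hsd17b7 and Hsd17b11, and 0 higher, where 6.04% of all kept probes were lower and 5.52% higher. The 2-fold call was passed by 1 of 12, the Hsd11b1 probe, where it took 2.39% of all kept probes as lower. The study had picked Hsd11b1 as a candidate from these same arrays, so its place among the 3 and its call were known beforehand. The 2 lines did not overlap for 11 of 12, and for 71.9% of all kept probes they did not overlap either. The median difference of the 12 was -0.36, and that of all kept probes was 0.0087. In the scanner files 0 of 12 passed, also at an unadjusted p below 0.05. Only Hsd11b1 did not overlap there, where 17.9% of all kept probes did not overlap. The direction of the value table was present in 11 of 12 probes between the scanner arrays labelled replicate 2. Between those labelled replicate 1 it was present in 7 of 12, and the largest difference of any of them was 0.18 in size. The share over all kept probes was not taken. Both sources are filed under the same sample labels, so a shared direction is not taken as independent evidence.

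**Figure D2:**
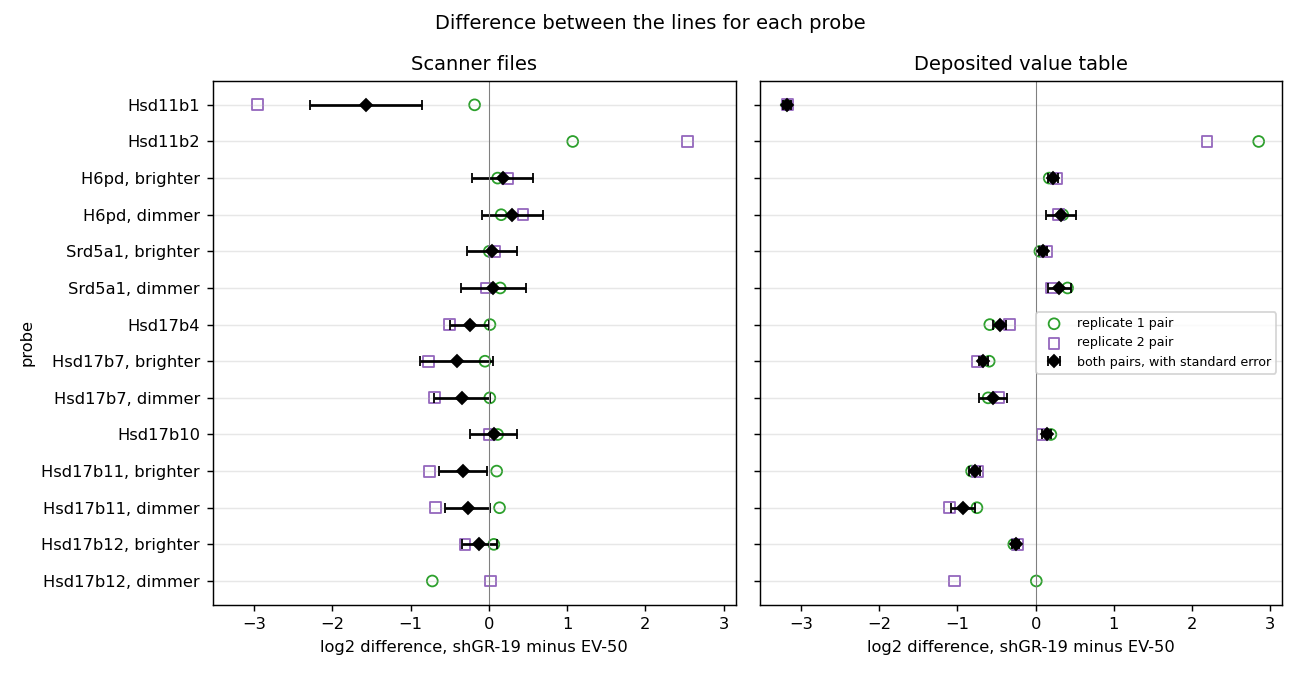
Difference between shGR-19 and EV-50 on the log2 scale for each probe, in the scanner files (left) and the value table (right), with the pairs of arrays labelled replicate 1 and replicate 2 as open symbols and the fitted difference with its standard error as diamonds; probes that were not kept have no diamond. For Hsd11b1 the scanner pairs lie at -0.18 and -2.96, and in the table the fitted difference is -3.18.

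Other enzymes that make or modify steroids were described from a list of 42 genes, of which 38 were on the array by name and 24 had a kept probe. Of the 24, the value table had 6 lower and 18 higher in shGR-19, with 1 called higher and 0 lower, and the median difference was 0.11 against 0.018 over 16755 genes, of which 2.70% were called lower and 2.16% higher. The called gene was Cbr3, a cytosolic NADPH-dependent carbonyl reductase, with -1.42 and -1.82 in EV-50 and 1.74 and 1.42 in shGR-19. Its difference was 3.20 (SE 0.19, adjusted p = 0.00471), or 9.21-fold, in the direction opposite to that of Hsd11b1. Its scanner levels were -3.34 and -4.96 in EV-50 and -3.31 and -2.89 in shGR-19, so that here too the arrays labelled replicate 1 lay together. The neighbouring carbonyl reductase gene Cbr1 was higher by 1.71-fold (0.78, SE 0.069, adjusted p = 0.00803). Hsd17b3, which makes testosterone, had the next largest difference, at -0.59 (SE 0.29, limma adjusted p = 0.196). Its signals were dim, at 12.8 and 12.6 in EV-50 and 11.9 and 10.6 in shGR-19. It was not well above background on EV-50 replicate 1. The call of Cbr3 was lost when any 1 column was left out.

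All 17 genes of a list around NADPH supply and glucose 6-phosphate had a kept probe. The list also holds the glucose-6-phosphatase genes G6pc and G6pc3, whose products remove that sugar phosphate, and Por, whose product consumes NADPH. Of its table differences, 11 were lower and 6 higher in shGR-19, with a median difference of -0.18. None passed the 2-fold call, and at an adjusted p below 0.01, 3 were lower and 1 higher, where 6.04% of all kept probes were lower and 5.52% higher. Me1, encoding malic enzyme, was lower (-0.91, SE 0.070, adjusted p = 0.00638), and so were Hk2, encoding a hexokinase (-0.65, adjusted p = 0.00880), and Pgd, encoding 6-phosphogluconate dehydrogenase (-0.50, adjusted p = 0.00844). The transketolase gene Tkt was higher (0.68, SE 0.049, adjusted p = 0.00577). The largest difference on this list, -1.07 for G6pd2, did not pass (SE 0.41, adjusted p = 0.128). Slc37a4, the transporter that brings glucose 6-phosphate to H6pd, had a difference of 0.31 (SE 0.092, adjusted p = 0.0765).

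Of 5 genes for receptors and hormone handling, 3 had a kept probe. Their median difference of -0.95 is the value of Abcb1b, against a median of 0.018 over all genes with a kept probe. Nr3c1, the target of the shRNA, was called lower. Abcb1b, encoding a P-glycoprotein that exports steroids, was 1.93-fold lower, with 0.45 and 0.49 in EV-50 and -0.50 and -0.45 in shGR-19 (-0.95, SE 0.051, adjusted p = 0.00415). The mineralocorticoid receptor gene Nr3c2 had table values of -0.02 and 0.02 in EV-50 and -0.04 and 0.04 in shGR-19, which overlapped (SE 0.057, adjusted p = 0.999). In the scanner files 0 genes of the 3 lists passed, also at an unadjusted p below 0.05.

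**Figure D3:**
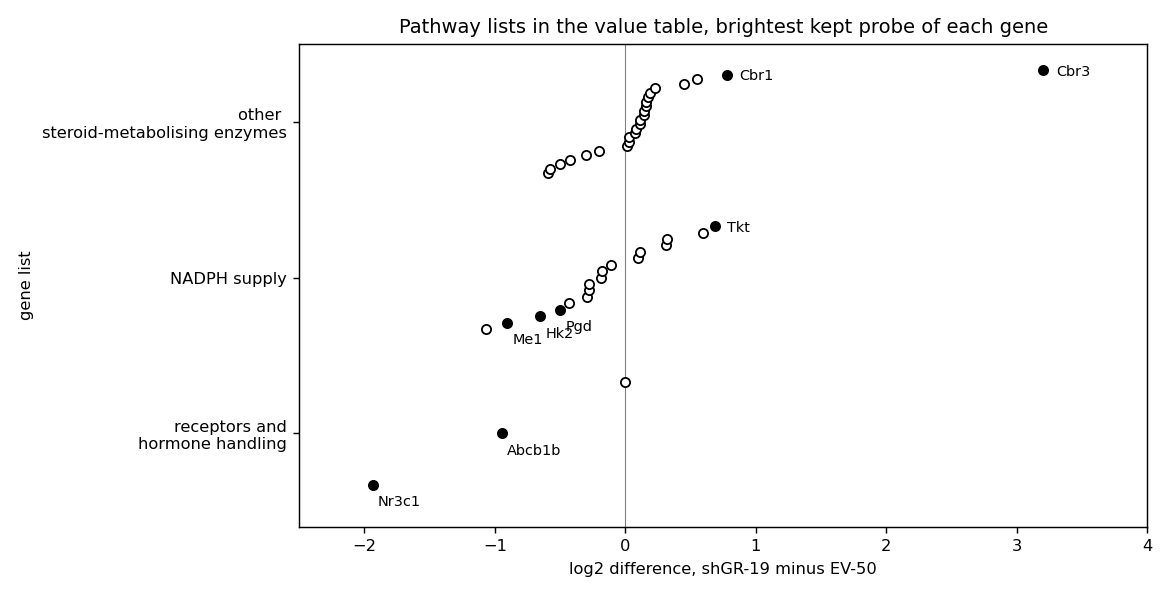
Table difference, shGR-19 minus EV-50, on the log2 scale, for the brightest kept probe of each gene on 3 lists; filled points have an adjusted p below 0.01. Cbr3 lies at 3.20 and Nr3c1 at -1.94, while the genes of the NADPH supply list lie between -1.07 and 0.68.

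Since each line is a single clone, the genes around Hsd11b1 were also read. Given here are 7 genes with a kept probe within 500 kb of its probe. Of these, 3 stood lower in the shGR-19 columns of the table at an adjusted p below 0.01, as did 6.04% of all kept probes, and all 3 by less than 2-fold. Lamb3, a laminin chain gene 120 kb away, had the largest difference (-0.81, SE 0.052, adjusted p = 0.00500). It was followed by AA408296 at -0.73 (adjusted p = 0.00518) and by Sertad4 at -0.55 (adjusted p = 0.00819). The other 4 did not pass, namely A130010J15Rik at -0.41, Traf3ip3 at -0.49, G0s2 at -0.15 and Camk1g at -0.02. The table columns of the lines overlapped for Traf3ip3, G0s2 and Camk1g. Traf3ip3 was dim, with signals of 11.5 and 17.0 in EV-50 and 20.2 and 14.2 in shGR-19. It was not well above background on EV-50 replicate 1. None of the 7 came near the -3.18 of Hsd11b1 in between.

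**Figure D4:**
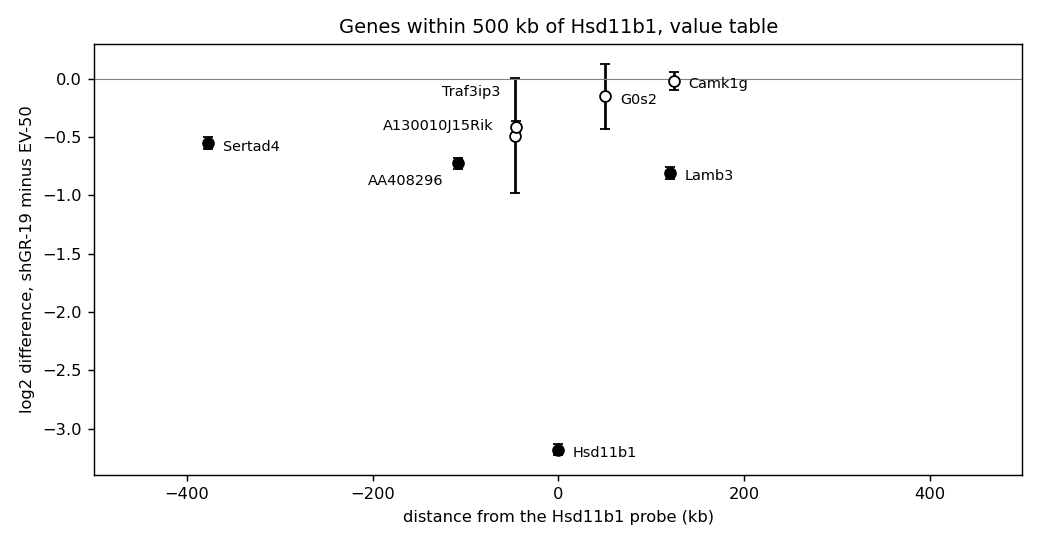
Table difference, shGR-19 minus EV-50, on the log2 scale with its standard error, for the 7 neighbours and Hsd11b1 against the distance of their probe from that of Hsd11b1 in kb; filled points have an adjusted p below 0.01. Hsd11b1 lies at -3.18 and its neighbours between -0.81 and -0.02.

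The genes whose 4 table values lay nearest to those of Hsd11b1, by Euclidean distance among probes well above background on all arrays, were Ifi27l2b (0.0839), Aass (0.0970) and Dhrs3 (0.141). Ifi27l2b belongs to an interferon-inducible family, Aass encodes the first enzyme of lysine breakdown and Dhrs3 encodes a retinal reductase of the same short-chain dehydrogenase family as Hsd11b1. Their table differences were -3.10, -3.11 and -3.32. Between the scanner arrays labelled replicate 2 they differed by -3.09, -2.71 and -3.09, and between those labelled replicate 1 by 0.40, 0.0046 and -0.70. The contrast was thus larger between the replicate 2 arrays in all 3, as in Hsd11b1. That was not particular to these genes. Over the probes detected on every array, the difference between the lines had an SD of 0.513 in replicate 2 and 0.225 in replicate 1.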

How the data were processed

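The authors labelled RNA from EV-50 and shGR-19 with Cy3 in duplicate and read all 4 arrays on 1 slide in 1 scan, so that neither can be fitted as a batch. They deposited the intensity of each spot, background-subtracted by Agilent Feature Extraction 10.5.1.1 and not scaled between arrays, and GeneSpring output under the same labels. In that deposited table of log2 values each probe is centred on its median. The other steps behind that table are not given in the sources used here, and its columns carry the sample titles, from which the direction was taken. The medians of its columns ranged from -0.063 to 0.076.

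Processed intensities were divided by the 75th percentile of their array and put on the log2 scale, without control spots and the 74 to 139 spots flagged as outliers on each array. No spot was saturated, and 23290 to 27358 of 43379 spots were well above background. A probe was kept where both duplicates of EV-50 or both of shGR-19 were well above background. Both sources were fitted with limma 3.58.1 in R 4.3.3 (lmFit, eBayes) and adjusted by Benjamini-Hochberg over the kept probes. The 2-fold limit and the p of 0.01 follow the methods of the study, which state no adjustment of that p, whereas here it was applied to the adjusted p. No permutation test was run, since with 2 arrays per line the smallest exact p is 0.333. The number of arrays limits the precision.

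All member probes are reported. From the lists of pathway genes the called genes and the 3 largest differences of each were named, and Hk2, Pgd, Slc37a4, G6pc, G6pc3 and Por were added after their values were seen. Of the neighbours of Hsd11b1 all but 1, which is not reported here, were named, and of genes with like values the nearest 3. Members and lists were chosen with earlier results of these data known. Of the list names, 4 matched no probe. On simulated data with 200 probes changed by 2 on the log2 scale, 0 were recovered with the spread of the scanner files, and 123 (61.5%) with that of the value table, with 0 false calls among 24436 probes. The simulated noise was independent between arrays, whereas deviations of same-numbered scanner arrays correlated at 0.652. These rates may therefore not hold for the real arrays. Alternatives covered background correction, normalization, the filter on dim probes, the variance prior, a replicate block, each array left out and a looser p. Protein, qRT-PCR, chromatin immunoprecipitation and reporter data were not analysed here.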

Additional observations from a re-analysis of the deposited data

How the results depend on the processing

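Pathway genes are counted here without the targeted Nr3c1. In the scanner files 0 member probes and 0 pathway genes were called under background correction by normexp, quantile normalization, the percentile over detected probes, either other filter on dim probes, a trended robust prior, a replicate block, an adjusted p below 0.05, or with any 1 array left out (0 to 0). The value table as the source gave 1 member probe (Hsd11b1) and 1 pathway gene (Cbr3), and moved Hsd11b1 from -1.57 to -3.18. Without 1 array the scanner difference of Hsd11b1 ranged from -2.46 to -0.69. The dimmer Srd5a1 probe reversed to -0.0086 under normexp. Leaving out 1 array in turn reversed a small scanner difference in 13 combinations of a probe and an array. The ranges of these probes were -0.20 to 0.56 and -0.11 to 0.71 for the H6pd probes, -0.24 to 0.31 and -0.37 to 0.48 for Srd5a1, -0.99 to 0.17 and -0.77 to 0.084 for Hsd17b7, -0.67 to 0.0028 for the brighter Hsd17b11 probe, -0.24 to 0.0025 for Hsd17b12 and -0.19 to 0.32 for Hsd17b10. The cause was not tested.

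In the value table no direction reversed under any alternative run. With 1 column left out, 0 to 0 member probes and 0 to 0 pathway genes were called, Hsd11b1 ranging from -3.19 to -3.17, and over all kept probes 0 were called while 9066 to 9826 had an unadjusted p below 0.05. The lone column of a line was then assumed to vary like the other line. With all probes kept, 1 member probe and 0 pathway genes were called, 28 lower and 15 higher over all probes against 585 and 457, and the brighter Hsd17b7 and Hsd17b11 probes no longer passed (adjusted p = 0.0297 and 0.0288 with limma). The trended prior, by contrast, let Hsd17b4 (5.23e-05), Hsd17b12 (0.00206) and the dimmer Hsd17b7 probe (0.00713) pass an adjusted p of 0.01.

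The replicate numbers of the 2 lines pair nothing that the labels state. Deviations of same-numbered arrays correlated at 0.652 in the scanner files and 0.109 in the value table, over 2 pairs. With the replicate block, the value table gave 0 member probes, 0 pathway genes and 0 probes in all, with 12085 at an unadjusted p below 0.05, and Hsd11b1 stayed at -3.18 with an adjusted p of 0.0293. Signal over background limits Hsd11b2 and the dimmer Hsd17b12 probe.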
